A study of Mus musculus with 6 samples.

Results

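The effect of TGF-β2 itself was described in MS-1, a line of endothelial cells immortalised from the islets of the mouse pancreas. All 6 libraries of the series entered, 3 from cells given 1 ng/ml TGF-β2 for 72 h and 3 from cells cultured as long without it. Before that, every culture had been transfected with a locked nucleic acid inhibitor, against no microRNA (negative control, LNA-NC), against miR-31 or against miR-27. Each inhibitor was therefore seen once without and once with TGF-β2, and these 3 pairs gave the comparison. No condition was repeated. Nothing in the labels tells if the 3 transfections were independent cultures, and a p-value here reflects only how far these samples spread, which may be technical. The total RNA was depleted of ribosomal RNA before sequencing. Of 29955 gene names in the deposited table, the 11816 with a mean of at least 1 FPKM (fragments scaled to transcript length and library size) over the 6 libraries were tested. Wherever 3 values are given for one TGF-β2 state, they stand in the order negative-control, miR-31 and miR-27 inhibitor.

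TGF-β2 is a secreted ligand that brings together a pair of receptor kinases at the cell surface, which then activate Smad transcription factors. In endothelial cells it can start a change toward a mesenchymal state, with loss of some endothelial genes and gain of contractile and matrix genes. A cell's outward-facing equipment, its transporters, channels and receptors, and the kinases and GTPases behind them decide which later signals it can hear.

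The mature microRNAs that the inhibitors are named for are shown because they are the feature in which the 3 pairs differed. The labels name no arm and no inhibitor sequence. The arms shown are those usually studied, from RefSeq (GRCm38.p6), 5′ to 3′, with the seed (bases 2 to 8) in capitals.
mmu-miR-31-5p: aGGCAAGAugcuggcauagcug
mmu-miR-27a-3p: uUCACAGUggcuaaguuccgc
mmu-miR-27b-3p: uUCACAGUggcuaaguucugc
The latter pair share a seed, which miR-31 does not have.

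Endothelial markers were checked first. All 10 endothelial markers were tested, and their summed level was 1790 to 1918 FPKM without TGF-β2 and 1823 to 1900 FPKM with it. Pecam1, Cdh5, Tek and Erg did not pass the test, Emcn and Vwf rose, and Kdr, Tie1, Egfl7 and Esam fell. Of 8 leukocyte markers, 5 stayed under 0.1 FPKM in all 6 libraries, Ptprc among them, and the list summed to at most 1.45 FPKM. Of 6 pancreatic markers, 5 stayed under 0.1 FPKM, and the list summed to at most 0.242 FPKM. Epithelial markers summed to 38.8 to 54.5 FPKM without and 13.6 to 17.4 with TGF-β2, mostly Krt18, while Epcam was listed at 0 throughout. Markers of pericytes and fibroblasts summed to 3.58 to 4.36 FPKM without and 19.8 to 24.7 with TGF-β2. Of these 8 genes, 4 (Cspg4, Rgs5, Dcn and Lum) stayed under 0.1 FPKM, and most of the sum was Pdgfra. In bulk RNA, fewer cells of a type and less RNA per cell cannot be told apart. The culture given miR-31 inhibitor plus TGF-β2 stood apart in genes of the stress response. Ddit3, which encodes the stress factor CHOP, was at 298 FPKM there and at 19.6 to 70.1 FPKM in the other 5. The endoplasmic reticulum chaperone gene Hspa5 was at 1493 FPKM there and at 522 to 715 FPKM in the others. Of the 121 genes chosen for naming, 28 share their listed place with another name, which limits their values. All 121 kept their direction and their call without that pair of libraries. The direction could not change, since the choice required the same sign in every transfection. For genes named from gene classes, the choice also required a call with all 6 libraries, which favours a kept call. Neither result therefore shows that these genes are free of an effect of that stressed culture.

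Many genes moved by a little and few by much. Of the 11816 genes, 50.2% passed at an adjusted p under 0.05 (limma), 22.7% as rises and 27.5% as falls. The balance depends on scaling: rises made up 45.2% of the calls as deposited, 49.7% (2939 rises and 2971 falls) with median ratio scaling and 53.9% (3183 and 2717) with scaling to the 75th percentile. Only 4.33% changed by at least 1 in log2(FPKM + 1), 2.36% upward and 1.97% downward, and the median difference over all genes was -0.02. Below, "by at least 1" means both called and changed by that much, and the counts of each class are to be read beside these shares. Gene classes were set by symbol pattern, 38 in number, and together held 2150 of the tested genes and 152 of the 512 changed by at least 1. Of those 512, 105 averaged under 1 FPKM in one of the TGF-β2 states, so they passed the filter through the state where they were high. With at least 1 FPKM required in both states, 3.55% of 11468 genes changed by at least 1.

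**Figure D1:**
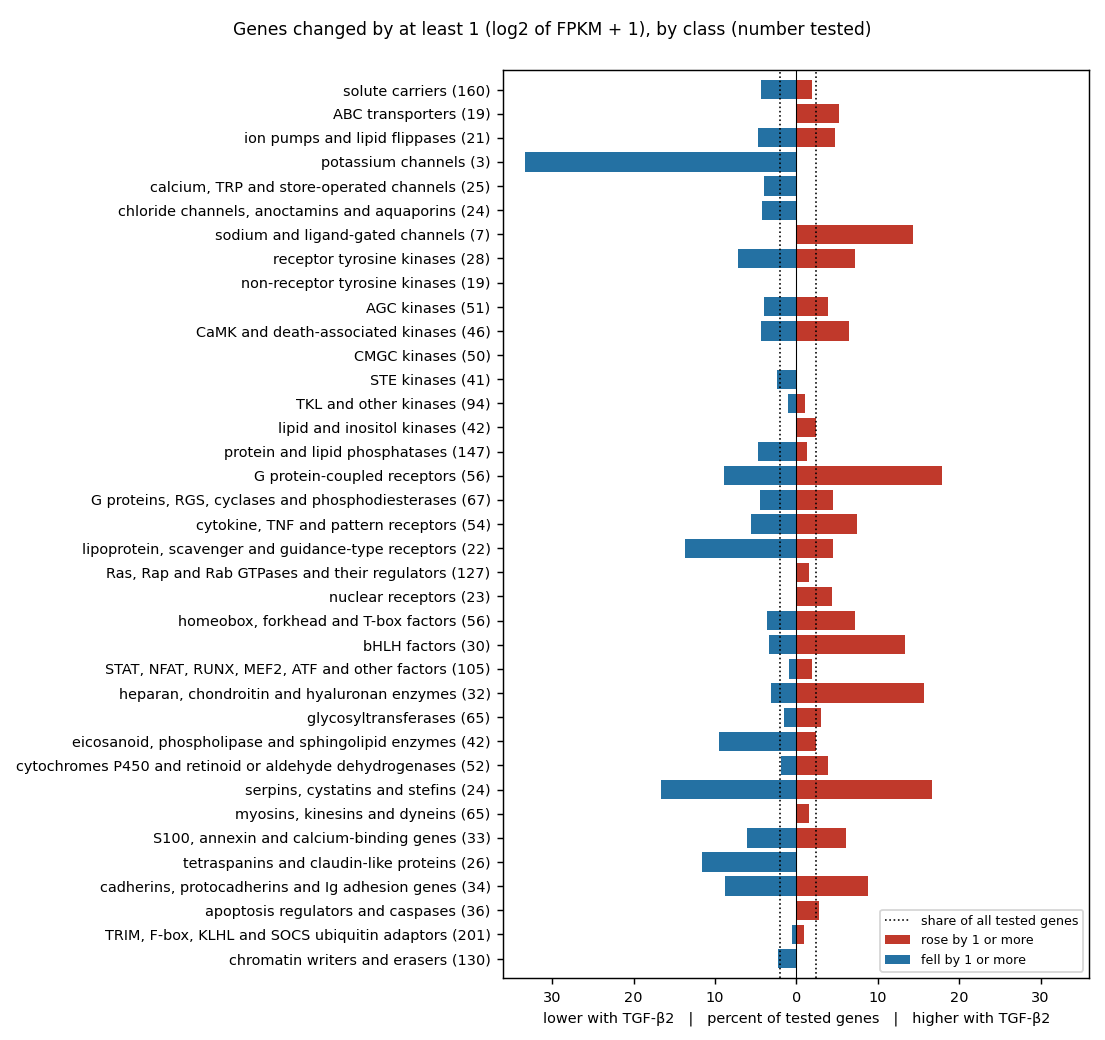
Share of tested genes in each class shown that rose (red, to the right) or fell (blue, to the left) by at least 1 in log2(FPKM + 1) with TGF-β2, with the number tested in brackets. Dotted lines mark the shares over all 11816 genes, 2.36% and 1.97%. Several classes extend past both lines, among them G protein-coupled receptors and the serpin, cystatin and stefin genes, while CMGC and non-receptor tyrosine kinases have no bar.

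Receptor genes held some of the largest changes. Of 56 tested genes for G protein-coupled receptors, 24 rose and 21 fell, 10 and 5 of them by at least 1 (26.8% against 4.33% of all genes). Their median difference was 0.08. With at least 1 FPKM required in both states, 6 and 5 of 52 did (21.2% against 3.55%). With a pseudocount of 5, which damps low genes, 3 rose by at least 1 in place of 10. The symbol pattern also took in Npr3, the clearance receptor of natriuretic peptides, and the Ramp genes, whose products only accompany such receptors. The largest rise was that of Npy1r, a receptor for neuropeptide Y. Npy1r stood at 0.853, 0.772 and 0.707 FPKM without TGF-β2 and at 23.2, 19.8 and 21.7 FPKM with it, 25.7 to 30.6 times as much (3.67 ± 0.05, SE of the fit, adjusted p = 2.015e-05). Every library with TGF-β2 lay above every library without it. The orphan receptor gene Gpr153 went from 0.458, 0.489 and 0.478 to 6.22, 6.29 and 6.12 FPKM, with little difference between the transfections (2.29 ± 0.04). Fzd6, a receptor for Wnt proteins, went from 2.25, 1.88 and 2.03 to 8.79, 6.74 and 7.58 FPKM (1.51 ± 0.05). P2ry6, a receptor for the nucleotide UDP, went from 0.595, 0.636 and 0.559 to 3.67, 3.09 and 3.39 FPKM (1.45 ± 0.06).

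Receptors for acetylcholine, serotonin and thrombin were among those that fell. Chrm3, the muscarinic acetylcholine receptor that couples to calcium release, fell from 18.6, 23.3 and 22.7 FPKM to 2.12, 2.64 and 2.47 (-2.72 ± 0.04, adjusted p = 2.015e-05). The level with TGF-β2 was 0.109 to 0.114 of that without it in each transfection. Htr2a, a serotonin receptor of the same signalling type, fell from 30.3, 30.6 and 28.5 FPKM to 7.26, 4.81 and 6.23 (-2.13 ± 0.11). F2rl3, which encodes the thrombin receptor PAR4, fell from 19.1, 20.3 and 16.4 FPKM to 5.22, 4.67 and 3.79 (-1.82 ± 0.06). Gprc5b fell from 21.7, 22.1 and 19.6 FPKM to 7.25, 7.07 and 7.16 (-1.44 ± 0.05), although its listed place overlaps Iqck. F2r, the gene of the other main thrombin receptor PAR1, moved the opposite way, from 59.6, 63.0 and 65.1 FPKM to 129, 119 and 131 (1.00 ± 0.05). In FPKM, F2r was thus the more abundant of these thrombin receptor genes in both states. The other members changed by at least 1, picked out after seeing their values, were Eltd1 (1.34), Npr3 (1.22), Lgr4 (1.2), Gpr56 (1.14), Fzd4 (1.03) and Cxcr7 (-1.39), as log2 differences. Calcrl and its partner Ramp2, which together form a receptor of adrenomedullin, also fell, at -0.98 and -0.88, and were likewise picked out after seeing their values.

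Behind these receptors, 67 genes of G proteins, RGS proteins, cyclases and phosphodiesterases were tested, of which 18 rose and 24 fell, 3 and 3 by at least 1. RGS proteins shorten the signal of G proteins. Rgs12 rose from 27.5, 24.4 and 25.8 FPKM to 94.3, 92.2 and 96.7 (1.83 ± 0.05, adjusted p = 3.805e-05), and Rgs3 from 10.8, 11.4 and 10.7 to 25.5, 33.0 and 27.7 (1.30 ± 0.07). Plcb1, a phospholipase through which Chrm3 and Htr2a can signal, fell from 3.77, 4.51 and 4.16 FPKM to 1.43, 1.30 and 1.34 (-1.12 ± 0.07). Prkar2b, a regulatory subunit of protein kinase A, was a further gene that fell by at least 1 (-1.12), picked out after seeing its values.

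**Figure D2:**
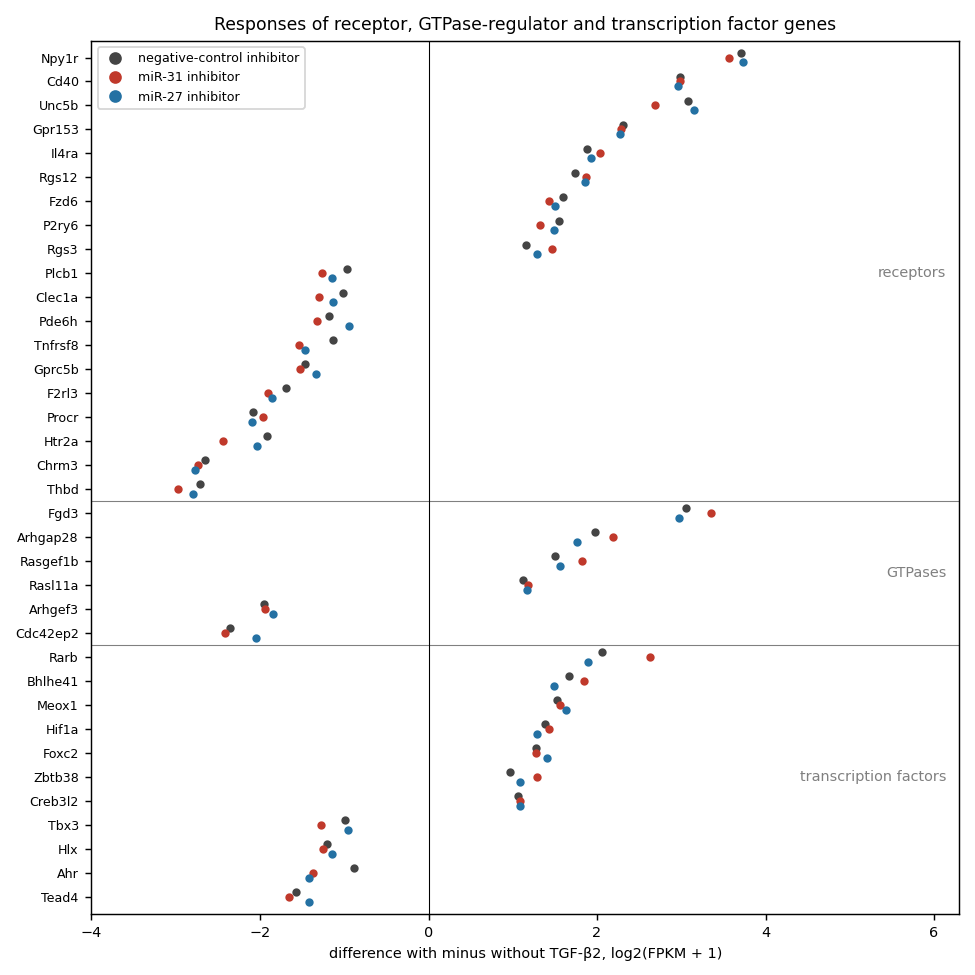
Difference with minus without TGF-β2, in log2(FPKM + 1), for named genes of receptors (with the G protein, RGS and phosphodiesterase genes behind them), GTPase classes and transcription factors; each point is 1 of the 3 transfections, and no error bar is drawn because each condition had 1 library. The naming rule keeps the 3 points of every gene on the same side of 0, and the genes run from Npy1r at 3.56 to 3.73 down to Thbd at -2.97 to -2.71.

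Cytokine and TNF receptor genes rose and fell in similar numbers, with 21 of 54 higher and 16 lower, 4 and 3 by at least 1 (13% against 4.33%). With at least 1 FPKM required in both states, 4 rose and 1 fell by at least 1 of 50 (10% against 3.55%). Cd40, which receives a T-cell signal, went from 2.15, 1.64 and 1.82 FPKM to 23.9, 20 and 20.9 (2.98 ± 0.04, adjusted p = 1.809e-05). Its responses in the 3 transfections lay within 2.96 to 2.99. Il4ra, the receptor chain shared by interleukins 4 and 13, rose from 20.6, 16 and 17.7 FPKM to 78.6, 68.8 and 70.0 (1.95 ± 0.05). Osmr, the oncostatin M receptor chain, rose from 9.66, 8.91 and 10.2 FPKM to 34.5, 32.6 and 31.7 (1.68 ± 0.06) and was picked out after seeing its values, as was Il12rb1 (-1.04). Tnfrsf8, which encodes CD30, fell from 1.53, 2.37 and 2.03 FPKM to 0.161, 0.159 and 0.1 (-1.38 ± 0.09). Clec1a, a lectin-like receptor of endothelial and dendritic cells, fell from 10.5, 12.5 and 10.8 FPKM to 4.69, 4.49 and 4.42 (-1.15 ± 0.06).

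The anticoagulant receptors of the endothelial surface fell together with the urokinase receptor. Thbd, or thrombomodulin, turns thrombin toward activating protein C, and Procr is the receptor that presents protein C to it. Thbd fell from 137, 155 and 165 FPKM to 20.1, 19.0 and 22.8 (-2.82 ± 0.06, adjusted p = 2.945e-05). Procr fell from 1138, 1127 and 1156 FPKM to 269, 288 and 269 (-2.05 ± 0.05, adjusted p = 3.009e-05). Plaur, the urokinase receptor, fell from 162, 182 and 168 FPKM to 45.0, 42.3 and 49.7 (-1.88 ± 0.08) and was picked out after seeing its values. In the same class of lipoprotein, scavenger and guidance-type receptors, Unc5b, a netrin receptor of blood vessels, rose from 1.39, 1.73 and 1.36 FPKM to 19.2, 16.6 and 20 (2.97 ± 0.10). Of the 22 tested genes in it, 6 rose and 9 fell, 1 and 3 by at least 1.

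Transporter genes had a share of larger changes nearer to that of all genes. Of 160 solute carriers, 43 rose and 50 fell, 3 and 7 by at least 1 (6.25% against 4.33%), and the median was 0.00. With at least 1 FPKM required in both states, 2 and 5 of 153 did (4.58% against 3.55%). The outstanding member was Slco4a1, a carrier of organic anions including thyroid hormones. It went from 0.475, 0.653 and 0.606 FPKM to 15.8, 26.5 and 20.4, 33.2 to 40.6 times as much (3.77 ± 0.11, adjusted p = 5.123e-05). Its relative Slco5a1 rose from 2.18, 2.37 and 2.40 FPKM to 6.57, 7.26 and 7.16 (1.27 ± 0.04). The taurine transporter Slc6a6 rose from 7.89, 7.69 and 7.99 FPKM to 22.2, 14.5 and 18.8, least with the miR-31 inhibitor (1.12 ± 0.11).

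Slc30a4 had the largest fall of the 7 solute carriers that fell by at least 1. Slc30a4, which loads zinc into vesicles, fell from 261, 282 and 278 FPKM to 71.8, 76.2 and 74.0 (-1.87 ± 0.04, adjusted p = 2.802e-05). Slc14a1, a urea transporter, fell from 2.64, 2.53 and 2.31 FPKM to 0.0675, 0.135 and 0.165 (-1.64 ± 0.06). Slc16a10, a carrier of aromatic amino acids, fell from 7.22, 8.43 and 7.64 FPKM to 1.88, 2 and 2.11 (-1.55 ± 0.05). Slc25a13, the mitochondrial aspartate-glutamate carrier, fell from 50.8, 47.9 and 46.3 FPKM to 22.4, 18.5 and 20.9 (-1.19 ± 0.06). The glutamine transporter Slc1a5 (-1.19), Slc35f1 (-1.16) and the sodium, potassium and chloride cotransporter Slc12a2 (-1.05) complete the 7, picked out after seeing their values.

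Pumps and lipid transporters gave 3 larger changes. Abca1, which exports cholesterol to apolipoproteins, rose from 1.81, 1.67 and 1.64 FPKM to 4.79, 6.26 and 5.38 (1.25 ± 0.08), the only 1 of 19 ABC transporters to change by at least 1. Atp2b4, a calcium pump of the plasma membrane, rose from 2.03, 2.28 and 2.11 FPKM to 13.5, 8.54 and 11.6 (1.94 ± 0.14). Atp8a1, which flips aminophospholipids to the inner face of membranes, fell from 18.3, 20.8 and 21 FPKM to 5.14, 5.99 and 6.28 (-1.63 ± 0.04).

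Of 94 names for potassium channels and their subunits in the table, 3 were tested, and all 3 fell. Of 25 tested calcium, TRP and store-operated channel genes, 7 rose and 5 fell. Of 24 for chloride channels, anoctamins and aquaporins, 8 rose and 11 fell. Kcnq1 fell from 6.33, 8.31 and 7.03 FPKM to 1.67, 1.61 and 1.26 (-1.71 ± 0.09), but its listed place overlaps the antisense RNA Kcnq1ot1, and whether counting used strand is not stated. Kcnh2 fell from 10.0, 10.2 and 10.0 FPKM to 5.01, 5.67 and 5.96 (-0.76 ± 0.05). Kcnk2, a channel gated by stretch and lipids, fell from 2.23, 2.09 and 2.05 FPKM to 1.53, 1.44 and 1.11 (-0.41 ± 0.06). Kcnh2 and Kcnk2 were picked out after seeing their values. Clic5, a chloride channel-like protein attached to cortical actin, fell from 3.22, 3.87 and 3.31 FPKM to 0.205, 0.252 and 0.247 (-1.85 ± 0.05). Tpcn1, a channel of endosomes and lysosomes, fell from 10.8, 11.9 and 10.3 FPKM to 4.61, 4.44 and 5.23 (-1.06 ± 0.08). Gria4, a subunit of AMPA-type glutamate receptors, rose from 3, 3.18 and 3.40 FPKM to 7.28, 8.33 and 7.68 (1.06 ± 0.05).

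**Figure D3:**
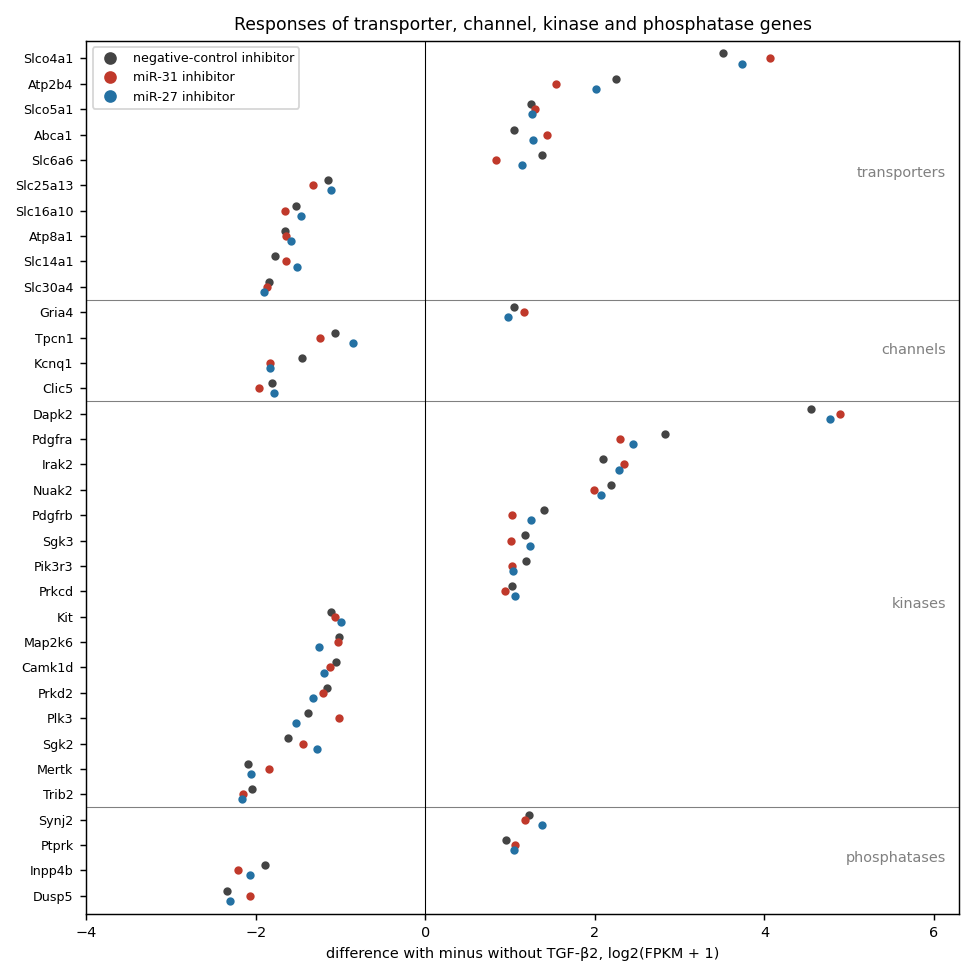
Difference with minus without TGF-β2, in log2(FPKM + 1), for named transporter, channel, kinase and phosphatase genes; each point is 1 of the 3 transfections, with 1 library per condition and so no error bar. Dapk2 lies at 4.55 to 4.89 and Slco4a1 at 3.51 to 4.06, while Dusp5 lies at -2.34 to -2.07.

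Kinase genes were near the background as a class. Over all kinase classes together, 93 of 371 tested genes rose and 120 fell, 9 and 8 by at least 1 (4.58% against 4.33%). None of the 50 CMGC kinases (the group of the MAP and cyclin-dependent kinases) and none of the 19 non-receptor tyrosine kinases changed by at least 1, although 24 and 13 of them passed the test. The changes of at least 1 lay in receptor tyrosine kinases (2 up and 2 down of 28), AGC kinases (2 and 2 of 51), the CaMK group (3 and 2 of 46) and a few others. Symbols set these classes, so Prkd2, a kinase of the CaMK group, was counted among the AGC kinases.

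Among receptor tyrosine kinases, both PDGF receptor genes rose. Pdgfra, a receptor typical of mesenchymal cells, went from 1.86, 2.33 and 2.51 FPKM to 19.3, 15.4 and 18.2 (2.53 ± 0.11, adjusted p = 1.346e-04). Pdgfrb went from 0.615, 0.824 and 0.806 FPKM to 3.26, 2.70 and 3.29 (1.22 ± 0.08). Mertk, which recognises Gas6 and guides the uptake of dying cells, fell from 53.3, 67.1 and 67.1 FPKM to 11.8, 18 and 15.3 (-2 ± 0.06, adjusted p = 6.379e-05). Gas6, its ligand, was at 0.465, 0.402 and 0.463 FPKM without TGF-β2 and at 3.19, 2.71 and 2.93 FPKM with it. Kit fell from 12.6, 19.9 and 16.4 FPKM to 5.31, 9 and 7.68 (-1.06 ± 0.04), and its listed place overlaps the clone name AK047175. The gene of its ligand, Kitl, fell by 1.90 on the log2(FPKM + 1) scale. Gas6 and Kitl were set beside their receptors after their values were seen.

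In the AGC, CaMK and other groups, the larger changes fell on single kinases. Nuak2 and Nuak1, relatives of the energy sensor AMPK, both rose, Nuak2 from 2.88, 3.40 and 3.87 FPKM to 16.7, 16.4 and 19.5 (2.08 ± 0.05, adjusted p = 3.864e-05) and Nuak1 by 1.70. Irak2, an adaptor kinase of interleukin-1 and Toll-like receptors, rose from 2.51, 2.57 and 2.50 FPKM to 13.9, 17.0 and 16.1 (2.24 ± 0.06). Prkcd, the delta isoform of protein kinase C, rose from 17.4, 17.9 and 17.8 FPKM to 36.3, 35.4 and 38.3 (1.01 ± 0.04). Pik3r3, a regulatory subunit of PI3 kinase, rose from 1.35, 1.22 and 1.16 FPKM to 4.36, 3.51 and 3.41 (1.08 ± 0.05). Prkd2 fell from 9.29, 11.4 and 10.6 FPKM to 3.59, 4.37 and 3.64 (-1.23 ± 0.05), and Camk1d from 5.35, 6.42 and 6.16 to 2.06, 2.39 and 2.11 (-1.13 ± 0.05). Map2k6, which activates p38, fell from 9.82, 11.6 and 11.6 FPKM to 4.34, 5.21 and 4.29 (-1.10 ± 0.06). Plk3 fell least with the miR-31 inhibitor, from 17.2, 23.6 and 22.3 FPKM to 5.98, 11.1 and 7.14 (-1.31 ± 0.10), and by 1.45 without that pair.

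The Tribbles genes encode pseudokinases that steer proteins to degradation. Trib2 fell in each transfection, from 9.98, 9.42 and 9.07 FPKM to 1.66, 1.34 and 1.25 (-2.12 ± 0.05, adjusted p = 2.869e-05). Trib1 fell from 11.4, 11.5 and 10.7 FPKM to 5.25, 5.43 and 4.77 (-0.99). Trib3 went from 47.7, 73.7 and 72.7 FPKM to 11.1, 95.3 and 21.7 and did not pass (-1.11 ± 0.48, adjusted p = 0.112). Without the pair with the miR-31 inhibitor, the difference was -1.85 for Trib3 and -1.01 for Trib1. The pair left out was the only one in which Trib3 did not fall, so the agreement of the others follows from leaving it out. Its TGF-β2 library was also high in the stress genes. The inhibitor, the stress and a single library cannot be told apart. Without that pair, the count of genes that fell by at least 1 in the CaMK class as set by symbol went from 2 to 4. Trib1 and Trib3 were picked out after seeing their values.

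Phosphatase genes fell more often than they rose. Of 147 protein and lipid phosphatase genes and their subunits, 20 rose and 60 fell, against 22.7% and 27.5% of all genes, and the median was -0.10. With scaling to the 75th percentile, 26 rose and 49 fell, and without the negative-control pair 12 rose and 36 fell. By at least 1, 2 rose and 7 fell. Dusp5 and Dusp7, which remove phosphate from the MAP kinase ERK, were among those that fell by at least 1. Dusp5 went from 42.3, 47.4 and 46.8 FPKM to 7.53, 10.5 and 8.74 (-2.24 ± 0.07, adjusted p = 5.551e-05), and Dusp7 from 46.8, 50.5 and 47.2 to 11.2, 12.3 and 12.4 (-1.92 ± 0.04). Dusp6, which also acts on ERK, did not pass, at 26.2, 34.6 and 34.7 FPKM without and 23.3, 34.0 and 27.6 with TGF-β2 (-0.17 ± 0.07, adjusted p = 0.0908). Inpp4b, which removes phosphate from PI3 kinase products, fell from 24.5, 28.9 and 28.4 FPKM to 5.88, 5.46 and 6.02 (-2.06 ± 0.07). Synj2 (1.26) and Ptprk (1.02), a receptor-type tyrosine phosphatase, rose by at least 1. Dusp6 and Dusp7 were picked out after seeing their values, as were the other members that fell by at least 1, namely Ppp1r16b (-1.72), Ppp1r2 (-1.38), Dusp1 (-1.20) and Ptpn12 (-1.05).

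Among small GTPases and the proteins that switch them, several genes changed by at least 1. Of 127 Ras, Rap and Rab GTPases and their regulators, 2 rose and 0 fell by that much (1.57% against 4.33%), the 2 being Rasgef1b (1.63) and Rasl11a (1.16). Both averaged under 1 FPKM without TGF-β2. With at least 1 FPKM required in both states, 0 of 124 changed by at least 1 (against 3.55%). Fgd3, an activator of Cdc42, rose from 0.484, 0.555 and 0.567 FPKM to 11.4, 14.8 and 11.2 (3.12 ± 0.08, adjusted p = 4.012e-05). Cdc42ep2, an effector of Cdc42, fell from 11.9, 9.77 and 6.81 FPKM to 1.51, 1.01 and 0.891 (-2.28 ± 0.08). Arhgef3, an activator of RhoA and RhoB, fell from 19.2, 20.8 and 19.1 FPKM to 4.22, 4.68 and 4.60 (-1.91 ± 0.04). RhoB's own gene Rhob rose from 110, 93.0 and 84.7 FPKM to 315, 235 and 279 (1.52 ± 0.08), and Rhoq from 12.8, 13.3 and 12.7 to 47.8, 44.6 and 46.2 (1.76 ± 0.05). Dock8, an activator of Cdc42, rose by 1.66. Vav3 (-1.34), Arhgef7 (-1.14) and Plekhg1 (-1.10) fell. Rhob, Rhoq, Dock8 and these last 3 were picked out after seeing their values.

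Within the symbol-based classes, 6 groups of genes with the same symbol stem had a member that rose and another that fell by at least 1. Stems outside the classes were not searched. Rnd1 and Rnd3 encode small GTP-binding proteins that loosen the actin cytoskeleton. Rnd1 fell from 56.7, 63.4 and 67.1 FPKM to 21.5, 37.3 and 23.7 (-1.19 ± 0.15), while Rnd3 rose from 17.3, 17.5 and 19.8 to 42.0, 49.9 and 44.1 (1.27 ± 0.07). In each transfection Rnd1 was the higher of the pair in FPKM without TGF-β2 and Rnd3 the higher with it. Of the genes for GTPase-activating proteins, Arhgap28 rose from 8.74, 8.84 and 10.1 FPKM to 37.1, 44.0 and 36.5 (1.97 ± 0.09), while Arhgap18 fell from 22.5, 23.4 and 25.7 to 6.12, 6.46 and 7.33 (-1.70 ± 0.04). The order of this pair in FPKM also turned in all 3 transfections. Arhgap26 fell from 2.11, 2.35 and 2.02 FPKM to 0.402, 0.395 and 0.351 (-1.19 ± 0.04).

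The serum- and glucocorticoid-regulated kinases gave a similar exchange. Sgk2 fell from 2.28, 1.92 and 1.65 FPKM to 0.0652, 0.0750 and 0.0927 (-1.45 ± 0.07), and Sgk3 rose from 0.906, 0.919 and 0.898 to 3.32, 2.87 and 3.49 (1.14 ± 0.06). Sgk1 remained the most abundant of the 3 in FPKM, at 34.3, 38.3 and 37.6 without and 24.6, 29.7 and 22.8 with TGF-β2 (-0.51 ± 0.08), and was picked out after seeing its values. Pde7a, a phosphodiesterase of cAMP, rose from 6.06, 6.43 and 6.56 FPKM to 15, 17.2 and 15.5 (1.2 ± 0.05), and Pde6h fell from 23.9, 23.7 and 23 to 9.98, 8.92 and 11.5 (-1.15 ± 0.08). Tnfrsf9, which encodes the costimulatory receptor 4-1BB, rose from 1.78, 1.95 and 1.84 FPKM to 5.06, 4.79 and 5.16 (1.07 ± 0.05), while Tnfrsf8 fell. The membrane-binding annexin gene Anxa8 rose from 1.01, 0.730 and 0.822 FPKM to 7.22, 3.08 and 3.44 (1.52 ± 0.17), highest with the negative-control inhibitor, and its listed place overlaps Antxrl. Anxa7, far more abundant, fell from 143, 143 and 139 FPKM to 68.2, 66.9 and 67.7 (-1.06 ± 0.04).

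**Figure D4:**
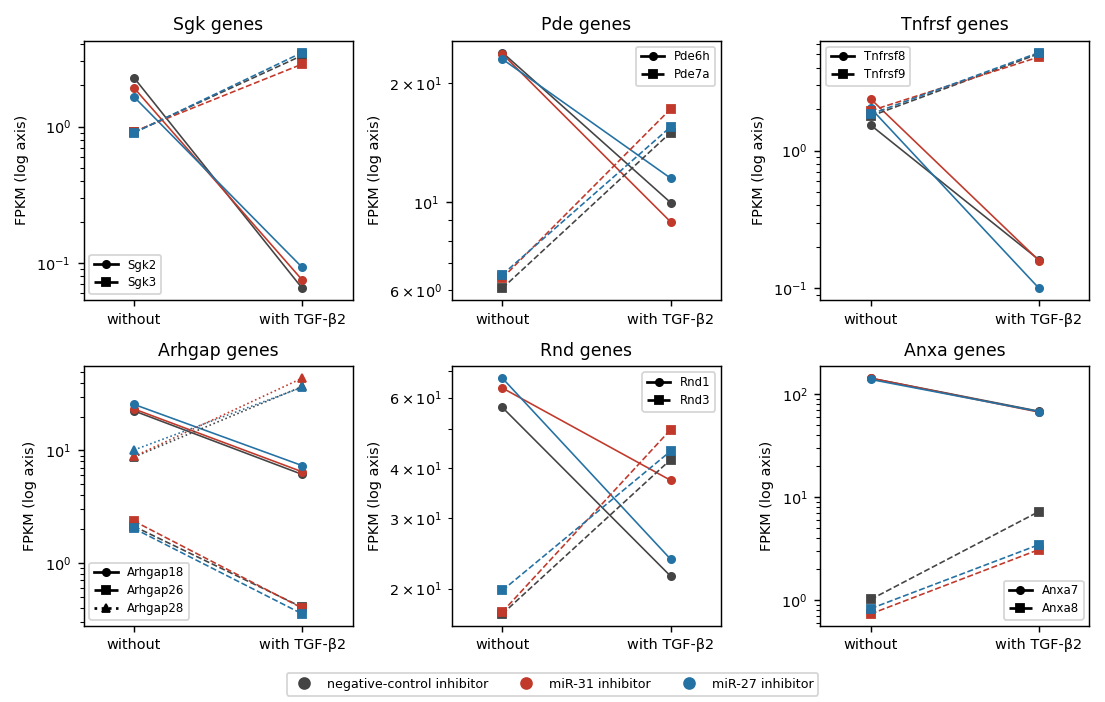
FPKM without and with TGF-β2, on log axes, for the 6 symbol stems within the classes in which a member rose and another fell by at least 1; each line joins the 2 libraries of 1 transfection, colour shows the transfection, and line style and marker show the gene. The Rnd, Arhgap, Sgk and Pde panels have lines that cross in all 3 transfections, while Anxa7 stays above Anxa8.

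Of 214 transcription factor genes, 11 rose and 4 fell by at least 1 (7.01% against 4.33%). Some passed the filter only through the state where they were high. With at least 1 FPKM required in both states, 0 of 22 nuclear receptors and 4 of 28 bHLH genes changed by at least 1. Of 53 homeobox, forkhead and T-box genes, 3 rose and 1 fell by that much, and of 104 other factors 2 rose and 1 fell. The share of all genes was then 3.55%. Of 23 nuclear receptors, 10 rose and 4 fell, and Rarb, a retinoic acid receptor, was the only one to change by at least 1. Rarb rose from 0.429, 0.406 and 0.585 FPKM to 4.97, 7.71 and 4.89 (2.20 ± 0.15, adjusted p = 4.811e-04). Rdh10, which makes the precursor of retinoic acid, rose from 4.78, 3.83 and 4.03 FPKM to 10.2, 9.24 and 9.33 (1.02 ± 0.05). Of 30 bHLH genes, 10 rose and 6 fell, 4 and 1 by at least 1. Hif1a, the hypoxia factor, rose from 81.7, 81.0 and 83.3 FPKM to 214, 220 and 205 (1.37 ± 0.05), and Bhlhe41, a repressor that also acts in the circadian clock, from 6.99, 8.61 and 9.76 to 24.5, 33.5 and 29.2 (1.67 ± 0.08). Mxd4 (1.26) and Bhlhe40 (1.07) rose too. Ahr, the receptor of dioxin-like compounds, fell from 2.17, 3.46 and 3.95 FPKM to 0.714, 0.730 and 0.847 (-1.22 ± 0.12). Cyp1b1, a known target of that receptor, was higher with TGF-β2 in each transfection. Of 56 homeobox, forkhead and T-box genes, 4 rose and 2 fell by at least 1. Meox1 rose from 28.1, 27.2 and 25.1 FPKM to 83.2, 81.8 and 79.6 (1.57 ± 0.04), Foxc2 by 1.32, Foxp1 by 1.08 and Six4 by 1.03, while Hlx (-1.20) and Tbx3 (-1.07) fell. Of the 105 other factors, 33 rose and 26 fell. Creb3l2, which drives secretory pathway genes, rose by 1.08, Zbtb38 rose by 1.12, and Tead4, a partner of YAP, fell from 7.14, 7.09 and 6.56 FPKM to 1.75, 1.57 and 1.83 (-1.55 ± 0.06). Mxd4, Bhlhe40, Foxp1 and Six4 were picked out after seeing their values.

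Most of the larger changes in enzymes of sulphated sugar chains were rises. Of 32 tested, 12 rose and 7 fell, 5 and 1 by at least 1 (18.8% against 4.33%). Ext1 extends the heparan sulphate chain, Hs6st2 adds sulphate to it, Sulf1 removes sulphate at the cell surface, and Papss2 makes the sulphate donor. Sulf1 rose from 17.2, 15.3 and 17.2 FPKM to 62.7, 58.4 and 61.5 (1.81 ± 0.04, adjusted p = 3.009e-05), and Hs6st2 from 11.1, 9.75 and 10.2 to 38.1, 30.6 and 34.4 (1.63 ± 0.05). Ext1 (1.41), Papss2 (1.18) and the chondroitin synthase gene Chsy1 (1.13) rose as well and were picked out after seeing their values. Chst7, a chondroitin sulphotransferase, fell from 31.0, 32.2 and 31.1 FPKM to 11.8, 11 and 13.3 (-1.32 ± 0.07).

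Among 65 other glycosyltransferases, 20 rose and 17 fell, 2 and 1 by at least 1. Gcnt1 and Gcnt2, which branch sugar chains, both rose, Gcnt1 from 3.22, 4.78 and 6.12 FPKM to 35.5, 31.1 and 36 (2.65 ± 0.15) and Gcnt2 from 3.98, 4.16 and 4.29 to 16.3, 11.9 and 15.1 (1.58 ± 0.10). St8sia4 makes polysialic acid, whose main carrier is the adhesion molecule NCAM. St8sia4 fell from 16.7, 21.4 and 20.5 FPKM to 2.68, 3.72 and 3.53 (-2.25 ± 0.04), with the closest agreement between transfections of all genes named, at -2.26 to -2.24. Ncam1 itself rose from 0.579, 0.322 and 0.283 FPKM to 4.70, 2.83 and 4.48 (1.83 ± 0.11). Of 34 cadherin and immunoglobulin-type adhesion genes, 3 rose and 3 fell by at least 1, among them Mcam, from 20.5, 21.4 and 14.5 FPKM to 69.1, 65.7 and 60.2 (1.75 ± 0.09), Lrrn4cl (-1.29) and Amigo2 (-1.09). Flrt2 (1.16) and Pcdh1 (-1.01), the others, were picked out after seeing their values.

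Lipid enzymes fell more than they rose among the larger changes, with 1 up and 4 down by at least 1 of 42 tested. Ptgs1 makes the common precursor of prostaglandins, and Ptgds turns it into prostaglandin D. Ptgs1 rose from 2.78, 2.29 and 2.62 FPKM to 9, 6.99 and 8.37 (1.35 ± 0.05), whereas Ptgds fell from 14.2, 12.3 and 13.2 to 0.765, 1.39 and 0.893 (-2.83 ± 0.12, adjusted p = 1.461e-04). Sgms2, a sphingomyelin synthase, fell from 10.1, 10.3 and 9.27 FPKM to 2.84, 2.87 and 2.62 (-1.53 ± 0.04). Plb1 (-1.35) and Degs1 (-1.13), picked out after seeing their values, were the others that fell by at least 1. Akr1b8, an aldo-keto reductase, fell from 181, 186 and 181 FPKM to 59.4, 55.9 and 63.5 (-1.60 ± 0.06).

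Protease inhibitors moved strongly in both directions. Of 24 serpins, cystatins, stefins and related genes, 14 rose and 6 fell, 4 and 4 by at least 1 (33.3% against 4.33%), and the median was 0.23. With at least 1 FPKM required in both states, 3 and 3 of 22 did (27.3% against 3.55%). Serpinb6b, among those that rose, went from 28.4, 31.0 and 32.2 FPKM to 91.8, 97.8 and 103 (1.64 ± 0.04). Stefins inhibit cysteine proteases. Stfa3 fell from 83.5, 74.5 and 65.8 FPKM to 3.80, 3.25 and 2.82, with responses between -4.15 and -4.13 (-4.14 ± 0.04, adjusted p = 6.921e-06). Near-identical stefin copies can share its reads, so its value is uncertain. Serpinf1 (1.30), Serpina3g (1.26), Cst6 (-1.59) and Spink2 (-1.51) were other members past that size, picked out after seeing their values, beside Stfa2, which went to 0.

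Of the remaining classes, those of motors, ubiquitin adaptors, apoptosis and chromatin had 1.49% to 2.78% of genes changed by at least 1. Hmga2, which encodes a protein that bends DNA in embryonic and tumour cells, fell from 110, 118 and 112 FPKM to 38.0, 31.0 and 35.5 (-1.68 ± 0.08). Of 201 ubiquitin adaptor genes, 2 rose and 1 fell by at least 1. Klhl6 rose from 14.4, 15.3 and 15.8 FPKM to 69.9, 72.6 and 70.9 (2.16 ± 0.04), Klhl24 rose by 1.08 and Neurl3 fell by 1.24. Casp12 rose from 16, 16.5 and 18.2 FPKM to 46.2, 42.4 and 43.7 (1.33 ± 0.06), and it was the only 1 of 36 apoptosis genes to change by at least 1. Myo7a was the only 1 of 65 motor genes to do so (1.44).

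Among 33 S100, annexin and calcium-binding genes, 9 rose and 19 fell, against 22.7% and 27.5% of all genes, with a median of -0.18. By at least 1, 2 rose and 2 fell (12.1% against 4.33%). With at least 1 FPKM required in both states, 1 rose and 2 fell by that much of 31 (9.68% against 3.55%). Rcan1, an inhibitor of the phosphatase calcineurin, fell from 41.4, 40.0 and 39.4 FPKM to 8.53, 17.1 and 9.82 (-1.74 ± 0.19), least with the miR-31 inhibitor, and by 2.03 without that pair. Rcn3, a calcium-binding protein of the secretory pathway, rose from 1.54, 1.58 and 1.63 FPKM to 8.40, 9.21 and 9.86 (1.97 ± 0.05), with a place that overlaps Fcgrt. Of 26 tetraspanin and claudin-like genes, 3 fell and 0 rose by at least 1. Tm4sf1, abundant on endothelial cells, fell from 485, 491 and 479 FPKM to 182, 120 and 164 (-1.66 ± 0.13), Pmp22 fell by 1.14 and Cd82, picked out after seeing its values, by 1.12.

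Some genes went from near silence to clear expression. They were chosen by level, with under 0.5 FPKM in all 3 libraries without TGF-β2 and at least 2 FPKM in all 3 with it, so their change is a description and carries no test. The rule found 23 genes (0.195% of those tested), and the reverse rule found 10 (0.0846%). Of the 23, 15 had their highest level with TGF-β2 under the negative-control inhibitor and 14 their lowest under the miR-31 inhibitor. Against the negative control, the median difference in log2 response of the 23 was -0.17 for miR-31 and -0.13 for miR-27. No matching counts for the other genes are given, so these counts have no background to be read against. An effect of the inhibitors on switching was not tested, since each had 1 library with TGF-β2. Just inside the limits lay Tnfaip6, at up to 0.5 FPKM without TGF-β2, Gpr153, and dystrophin, with 2.05 FPKM in a library with TGF-β2. Just outside lay Fgd3, Pmepa1, Rarb, Rasgef1b and Ncam1, each with a library above 0.5 FPKM before TGF-β2, and Foxc2 and Serpinf1, which did not reach 2 FPKM in every library with it.

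**Figure D5:**
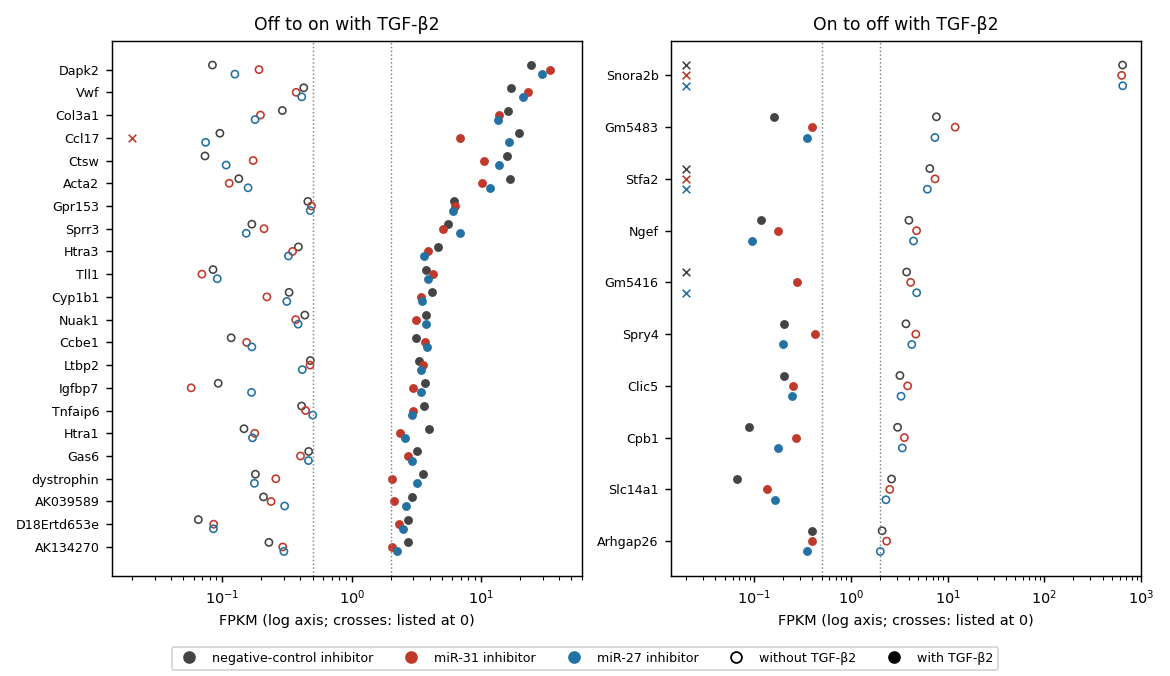
FPKM in all 6 libraries, on a log axis, for genes that went from off to on and from on to off with TGF-β2; open circles are libraries without and filled circles libraries with TGF-β2, crosses mark values listed at 0, and dotted lines mark 0.5 and 2 FPKM. The rule keeps every gene's open and filled circles on opposite sides of both lines, and levels reach 34.4 FPKM in Dapk2.

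Dapk2, a calmodulin-dependent kinase linked to cell death and autophagy, was the highest, at 0.0838, 0.192 and 0.125 FPKM without TGF-β2 and 24.4, 34.4 and 29.8 FPKM with it. The table places it on chromosome 9 from 66006033 to 66120049 (mm9) and lists DAPK2 at an overlapping place. Vwf, Col3a1, Ccl17, Ctsw and Acta2 followed, at 6.83 to 23 FPKM in their libraries with TGF-β2. Of the rest, at 2.05 to 6.93 FPKM, several act outside the cell. Tll1 and the serine proteases Htra1 and Htra3 cut matrix and growth factor proteins, Ltbp2 and Igfbp7 (which overlaps Polr2b) bind growth factors or their carriers, Tnfaip6 modifies hyaluronan, and Ccbe1 helps to process the lymphatic growth factor VEGF-C. Tll1 was at 0.0847, 0.0695 and 0.0913 FPKM without and 3.74, 4.23 and 3.87 FPKM with TGF-β2. Htra3 went from 0.387, 0.349 and 0.324 to 4.64, 3.86 and 3.65 FPKM, and Htra1 from 0.147, 0.178 and 0.171 to 3.97, 2.35 and 2.57. Others act inside the cell. The monooxygenase gene Cyp1b1 went from 0.328, 0.221 and 0.315 to 4.21, 3.45 and 3.49 FPKM. Sprr3, a protein of cornified epithelia, went from 0.169, 0.210 and 0.153 to 5.55, 5.06 and 6.93 FPKM. Further members were Nuak1, Gas6 and Gpr153, described with their classes, and 4 clone or alternative names (dystrophin, AK039589, D18Ertd653e and AK134270), of which dystrophin shares its place with Dmd.

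Some switched genes lay within 100000 bases of a gene changed by at least 1. How often other genes have such a neighbour was not counted. Ctsw, which encodes a protease of cytotoxic lymphocytes, lay 7691 bases from Fosl1 on chromosome 19 (Ctsw from 5465240 to 5468498, mm9). Ctsw went from 0.0734, 0.173 and 0.107 to 15.9, 10.5 and 13.8 FPKM, while Fosl1, an AP-1 subunit, fell from 14.8, 15.3 and 14.7 to 1.05, 1.85 and 1.15. These neighbours thus moved in opposite directions in every transfection. Ccl17 lay 28027 bases from Cx3cl1, and both were higher with TGF-β2. AK134270 lay 55016 bases from Fzd6, and both rose. Igfbp7, which rose (1.98), lay 99031 bases from Spink2, which fell (-1.51). On chromosome 16, Gm5416 lay 22293 bases from Gm5483 and 3774 bases from 2010005H15Rik, and all 3 were lower with TGF-β2 (log2 differences of -2.27, -2.92 and -3.21). The Stfa2 gene, also from on to off, lay 42174 bases from Stfa3 on the same chromosome.

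Of the 10 that went from on to off, Ngef, a guanine nucleotide exchange factor, went from 3.99, 4.79 and 4.45 to 0.118, 0.177 and 0.0943 FPKM. Spry4, a feedback inhibitor of growth factor receptors, went from 3.72, 4.70 and 4.27 to 0.204, 0.423 and 0.2 FPKM. Cpb1, a carboxypeptidase best known from the exocrine pancreas, went from 3.05, 3.58 and 3.41 to 0.0896, 0.270 and 0.178 FPKM, in libraries whose pancreatic markers were near 0. Slc14a1, Clic5 and Arhgap26 are described above. Stfa2 was at 6.56, 7.43 and 6.19 FPKM and then listed at 0 in all 3. A value of 0 in this table can be a failed estimate, since Eef1a1, a gene that every cell uses, was listed at 0 in all 6 libraries. The same limit holds for Snora2b, a short RNA listed at 644, 630 and 646 FPKM without and at 0 with TGF-β2, and for Gm5416. Igfbp6, Nxph3, Slc35f1, Tmprss11e, 1700012B09Rik and 2010005H15Rik lay just outside the limits.

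Promoters of genes that switched are shown for the letters CAGAC, the core that Smad proteins bind, and TGANTCA, the AP-1 site. RefSeq (GRCm38.p6) held promoters for 15 of the 23 genes that came on, 16 in all, and for 4 of the 10 that went off. In the 250 bases before the start, on either strand, CAGAC was in 9 of the 16 promoters of genes that came on (56.2%), in 2 of the 4 of genes that went off (50%) and in 42.2% of all 32851 promoters. TGANTCA was in 1 of the 16 (6.25%), in 0 of the 4 and in 6.75% of all. These counts are a description of letters in this window and not of binding. The promoters below are those of the highest gene, of 3 further genes that came on with differing numbers of matches, and of Ngef, which went off. They run 5′ to 3′ toward the start, with matches in capitals. Dapk2 (chr9:66157976-66158225, plus strand) held 0 matches, Acta2 (chr19:34255374-34255623, minus strand) 1, Col3a1 (chr1:45311288-45311537, plus strand) 2, Ccl17 (chr8:94810203-94810452, plus strand) 3 and Ngef (chr1:87573871-87574120, minus strand) 4, all of them CAGAC.
Dapk2: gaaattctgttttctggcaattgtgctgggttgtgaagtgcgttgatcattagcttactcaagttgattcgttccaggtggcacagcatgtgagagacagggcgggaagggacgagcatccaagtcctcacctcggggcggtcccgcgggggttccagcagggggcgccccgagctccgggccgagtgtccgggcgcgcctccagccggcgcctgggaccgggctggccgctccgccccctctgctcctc
Acta2: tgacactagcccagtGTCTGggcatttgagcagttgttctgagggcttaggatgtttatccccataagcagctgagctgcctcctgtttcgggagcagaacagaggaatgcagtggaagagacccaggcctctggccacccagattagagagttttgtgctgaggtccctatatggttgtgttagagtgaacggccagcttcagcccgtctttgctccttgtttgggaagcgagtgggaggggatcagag
Col3a1: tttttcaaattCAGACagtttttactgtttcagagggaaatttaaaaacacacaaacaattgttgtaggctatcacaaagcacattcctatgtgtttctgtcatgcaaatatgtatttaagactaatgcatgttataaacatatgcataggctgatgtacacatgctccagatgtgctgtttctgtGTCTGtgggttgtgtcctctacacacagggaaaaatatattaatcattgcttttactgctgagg
Ccl17: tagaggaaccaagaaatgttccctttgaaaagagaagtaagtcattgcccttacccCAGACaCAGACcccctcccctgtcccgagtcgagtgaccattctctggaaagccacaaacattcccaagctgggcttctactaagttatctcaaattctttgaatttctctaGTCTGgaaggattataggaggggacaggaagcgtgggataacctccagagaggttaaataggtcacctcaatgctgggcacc
Ngef: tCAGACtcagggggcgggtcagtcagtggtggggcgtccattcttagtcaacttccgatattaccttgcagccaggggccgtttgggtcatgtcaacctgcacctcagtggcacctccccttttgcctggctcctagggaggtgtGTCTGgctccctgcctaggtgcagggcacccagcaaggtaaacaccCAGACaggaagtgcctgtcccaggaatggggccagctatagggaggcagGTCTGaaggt
The 2 genes with most matches among these 5, Ccl17 and Ngef, moved in opposite directions.

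The named genes were chosen as called and of 1 sign in all 3 transfections, which favours genes whose 3 responses are close. Over these 121 genes, the range between the lowest and highest of the 3 had a median of 0.23 on the log2(FPKM + 1) scale, and it was over 0.5 in 17. The widest was that of Ccl17, at 1.26, with responses from 2.97 with the miR-31 inhibitor to 4.23 with the negative control. Without the pair with the miR-31 inhibitor, its difference was 4.13. Whether responses differ between inhibitors was not tested, since each has 1 pair.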

How the data were processed

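RNA from 6 cultures of MS-1 cells was sequenced after ribosomal depletion, with 1 library for each inhibitor and TGF-β2 state. The authors deposited one table of FPKM values per gene, and TopHat2 2.0.9, Cufflinks 2.1.1 and the build mm9 are named per the submitters' processing notes. FPKM keep no read totals, so the depth of each library is unknown and no counting interval is given. Differences were fitted with limma 3.58.1 (R 4.3.3) on log2(FPKM + 1), which understates changes of low genes. The model had terms for inhibitor and TGF-β2, 2 residual degrees of freedom, a prior of 2.87, and Benjamini-Hochberg adjustment over every gene whose mean reached 1 FPKM. It was tested on simulated data. Within each class set by symbol, the largest called rises and falls of at least 1 with 1 sign in all 3 transfections were named, clone names being skipped. The members and lists were chosen with earlier results of these data known. Other pseudocounts, filters, scalings, moderation, a fit without inhibitor and leaving out each pair were tried. Some items and their results are not reported here.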

Additional observations from a re-analysis of the deposited data

How the results depend on the processing

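The 121 named genes kept their direction and call under every alternative that tested them (83 of them at a mean of 5 FPKM or more, and 86 with at least 1 FPKM in both states, a filter chosen after seeing the data). The direction was fixed in advance by the naming rule when a pair was left out or the pseudocount changed. Filters, moderation and the fit without inhibitor leave each difference as it was. The scaling factors lay between 0.981 and 1.02, too near 1 to reverse differences of this size. The kept direction is therefore no support. For members of classes, the naming rule also required a call in the full fit. With a pseudocount of 5, 132 genes rose and 120 fell by at least 1. Leaving out each pair in turn gave 1640 to 2815 genes that rose and 1926 to 3272 that fell; the lowest counts, 1640 and 1926, came without the negative-control pair, and 1827 and 2090 came without the miR-27 pair. The cause was not tested, beyond the fewer samples. Genes from off to on numbered 9 with limits of 0.2 and 2 FPKM, 8 with 0.5 and 5 FPKM, and 24 to 27 when a pair was left out. Genes from on to off numbered 4 and 3 with those limits and 12 to 14 when a pair was left out. Scaling to the 75th percentile gave 3183 that rose and 2717 that fell, or 53.9% upward against 45.2%. Without the inhibitor term, and so with no replicate block, 2483 rose and 2967 fell. Of 152 counts by class and direction, 32 moved by over 1.5 times without the negative-control pair, 7 without the miR-31 pair and 25 without the miR-27 pair. Depth limits low genes most, but is unknown here.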

Other observations

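Some genes outside the classes, picked after their values were seen, changed as much. Nox1, an enzyme that makes superoxide, went from 0.910, 0.525 and 0.762 FPKM to 15.8, 13.1 and 13.3 (a log2 difference of 3.12), and its place overlaps other listed names. Sod3, which removes superoxide outside the cell, went from 1.22, 0.850 and 0.803 FPKM to 9.79, 5.76 and 6.41 (2.06). Nox4 rose by 1.01.

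Genes best known from neurons were among the falls. Nefl, a neurofilament subunit, went from 65.2, 70.3 and 67.3 FPKM to 3.10, 3.61 and 4.20 (-3.89). Nptx1, a secreted pentraxin, went from 51.0, 68.3 and 67.1 FPKM to 10.8, 12.1 and 14.6 (-2.22). Gap43, a growth cone protein, went from 16.4, 17.5 and 15.4 FPKM to 4.40, 4.23 and 4.21 (-1.72). Etv4 and Etv5, ETS factors that act below growth factor receptors, fell by 2.42 and 1.84 on the log2 scale. The cyclin gene Ccnd1 went from 808, 797 and 760 FPKM to 174, 171 and 173 (-2.18).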
